A study of Mus musculus with 6 samples.

Results

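The epidermal growth factor (EGF) family and its receptors were followed in suprabasal keratinocytes of mouse embryos in which spastin, an enzyme that cuts microtubules, had been switched on. A list of 10 genes was matched by symbol, each to 1 of 35275 identifiers in the table. They were the 6 ligands Areg, Ereg, Hbegf, Tgfa, Btc and Epgn, the 3 receptors Egfr, Erbb2 and Erbb3 and the feedback inhibitor Errfi1. Back skin of CD1 IGS embryos was collected at E16.5 (day of gestation), after dams had been fed doxycycline from E14.5, and cells with a green fluorescent histone (H2B-GFP, from a TRE-H2B-GFP transgene) were sorted from the dispase-separated epidermis. There were 3 control libraries and 3 K10-spastin libraries (K10rtTA;TREspastin), in which the keratin 10 promoter drives the doxycycline-dependent activator of the spastin transgene. Doxycycline and the sort are described for both groups alike. The samples are described as independent, but the sources used here do not give the transgenes of the controls or the number of embryos per library, so p-values measure only the spread among these libraries, which may be technical.

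EGF family ligands are made as membrane-bound precursors that metalloproteases cut free. They bind EGFR, which pairs with itself, ERBB2 or ERBB3 and signals through RAS, MEK and ERK and through PI3-kinase. ERBB2 has no known ligand of its own, and ERBB3 has little kinase activity and binds neuregulins. In the epidermis the pathway is known for its part in keratinocyte growth and in wound closure. ERRFI1 (MIG6) is induced by ERBB signalling and inhibits the receptor kinase.

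Levels are FPKM, which scales fragments to gene length and to the depth of the library, so that genes can be compared with each other. Changes are differences in log2(FPKM + 1) between K10-spastin and control with their SE, a scale that understates the change of low genes. They were tested with limma, and a gene was called at a Benjamini-Hochberg adjusted p under 0.05 over the 11071 genes whose mean reached 1 FPKM. Spast, the induced gene, had 21.2 to 24.0 FPKM in the controls, and K10-spastin 1, 2 and 3 had 1431, 639 and 213 FPKM. The suprabasal keratin Krt10 was at 23700 to 32510 FPKM in the controls and at 13070 to 17320 FPKM in K10-spastin. It fell by 0.81 on the log2 scale (limma adjusted p = 0.0438, or 0.145 without control 1). Krt10 was the only call among 6 suprabasal markers, whose median change was -0.0659. The others changed by -0.69 (Krt1), -0.34 (Dsg1a), 0.21 (Krtdap), 0.61 (Dsc1) and 0.75 (Sbsn). The basal keratin Krt5 was at 1072 to 3700 FPKM over all libraries, so basal transcripts were present in the sorted cells. Depth, read from the step size of low values, was about 16000000 to 22460000 fragments.

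Control 1 stood apart from the other controls in this family. It was the lowest of the 6 libraries in 8 of the 10 genes, all 6 ligands, Egfr and Errfi1, whereas 13.8% of all tested genes were lowest there. The mean of controls 2 and 3 was 33.5 times the level of control 1 for Epgn, 31.7 times for Ereg and 9.99 times for Areg. It was 3.2 times the level of control 1 for Hbegf, 3.05 times for Errfi1 and 2.53 times for Btc. The ratio was 1.19 for Tgfa, 1.16 for Egfr, 1.10 for Erbb3 and 0.896 for Erbb2. Control 1 was the deepest library, yet Epgn amounted there to only about 7.2 fragments and Ereg to about 23.9. Changes of the members are therefore given with and without control 1 where it moves them. That choice rests on the values of the members themselves. Limma array weights over all tested genes are low where a library departs from its group. The lowest was that of K10-spastin 1 (0.165), followed by control 1 (0.592).

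The promoters of Areg, Errfi1 and Epgn are shown because these genes were low together in control 1 while their values in K10-spastin went different ways relative to controls 2 and 3. Each stretch is the 120 bases before an annotated start, on the strand of the gene, from RefSeq on GRCm38.p6. They are Areg at chr5:91139479-91139598, the second of 2 Errfi1 starts at chr4:150854950-150855069, and Epgn at chr5:91027397-91027516, all on the plus strand. Capitals mark the cyclic AMP response element TGACGTCA and the TATA box TATAAA.
Areg: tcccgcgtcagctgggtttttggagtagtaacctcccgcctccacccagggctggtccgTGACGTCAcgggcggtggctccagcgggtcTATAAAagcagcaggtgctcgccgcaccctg
Errfi1: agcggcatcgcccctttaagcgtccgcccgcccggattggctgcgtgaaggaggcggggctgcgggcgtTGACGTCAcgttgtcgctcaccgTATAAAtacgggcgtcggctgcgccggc
Epgn: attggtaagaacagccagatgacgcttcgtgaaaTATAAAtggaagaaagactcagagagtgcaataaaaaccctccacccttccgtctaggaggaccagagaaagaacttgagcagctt

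Areg and Errfi1 each held TGACGTCA upstream of a TATA box. The element began 61 bases before the start of Areg and 51 bases before that of Errfi1, and the TATA box 31 and 28 bases before it. The Epgn stretch held TATAAA 86 bases before the start and no TGACGTCA. Windows of 250 bases before to 50 bases after a start were searched on both strands for 7 of the 10 genes, Btc, Tgfa, Egfr and Erbb2 besides these 3. Of 32851 such windows of all genes, 1.79% held TGACGTCA, 13.62% TATAAA, 7.81% the AP-1 site TGANTCA and 1.63% a CArG box. Neither of the last 2 was found in the windows of the 7 genes. TGACGTCA and TATAAA were also absent from the windows of Btc, Tgfa, Egfr, Erbb2 and the first Errfi1 start. Btc, though also low in control 1, is not among the stretches shown. Ereg and Hbegf, also low in control 1, and Erbb3 had no window and could not be searched. The bases after the Errfi1 start shown were not found near the opening of a GENCODE transcript of the gene, whereas those of Areg and Epgn were. A CArG box can contain TATAAA, whereas the other motifs do not contain each other, and a match describes the sequence only.

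Epgn (ENSMUSG00000035020), which encodes the EGFR ligand epigen, was the member that rose. The control libraries held 0.177, 5.61 and 6.25 FPKM and the K10-spastin libraries 107, 51.7 and 26.3 FPKM. Every K10-spastin library lay above every control, and the order of the 3 K10-spastin libraries was the same as for Spast. The mean went from 4.01 ± 3.34 to 61.7 ± 41.3 FPKM (SD, n = 3), or 15.4-fold, and the log2 change was 3.81 ± 0.77 (limma adjusted p = 0.0269). Without control 1 it was 2.96 ± 0.54 (limma adjusted p = 0.0434), and the ratio of means was 10.4. In sorted bulk samples, fewer cells of a type and less RNA per cell cannot be told apart. The limma adjusted p rose to 0.0643 without control 2, 0.0644 without control 3, 0.0552 without K10-spastin 1 and 0.0635 without K10-spastin 2.

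Of the 10 members 1 was higher and none lower, against 5.14% of all tested genes higher and 5.9% lower. At an unadjusted limma p under 0.05, 2 members were higher and none lower. Without control 1 the count was again 1 higher, Epgn, and none lower, against 1.98% and 2.08% of all genes, and at an unadjusted p 2 were higher and 3 lower. The share of all tested genes at an unadjusted p was not counted. Unadjusted counts, here and for the lists below, therefore have no background to be set against. The groups did not overlap in 3 members, Epgn, Btc and Tgfa, and in 40.4% of all tested genes. The median change of the 10 members was 0.235 with all libraries and 0.0468 without control 1, against -0.0891 and -0.0601 over all tested genes.

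Btc (ENSMUSG00000082361), which encodes betacellulin, a ligand of EGFR and ERBB4, was at low levels. The control libraries held 0.634, 1.61 and 1.60 FPKM and the K10-spastin libraries 4.05, 4.57 and 15.6 FPKM. The groups did not overlap, and K10-spastin 3, the library with the least Spast and the least Epgn of its group, had the most Btc. The log2 change was 1.80 ± 0.47 and missed the threshold (limma adjusted p = 0.0519). It was 1.57 ± 0.53 without control 1 (limma adjusted p = 0.137), and the limma adjusted p was 0.0467 without K10-spastin 1 and 0.0386 without K10-spastin 3.

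**Figure D1:**
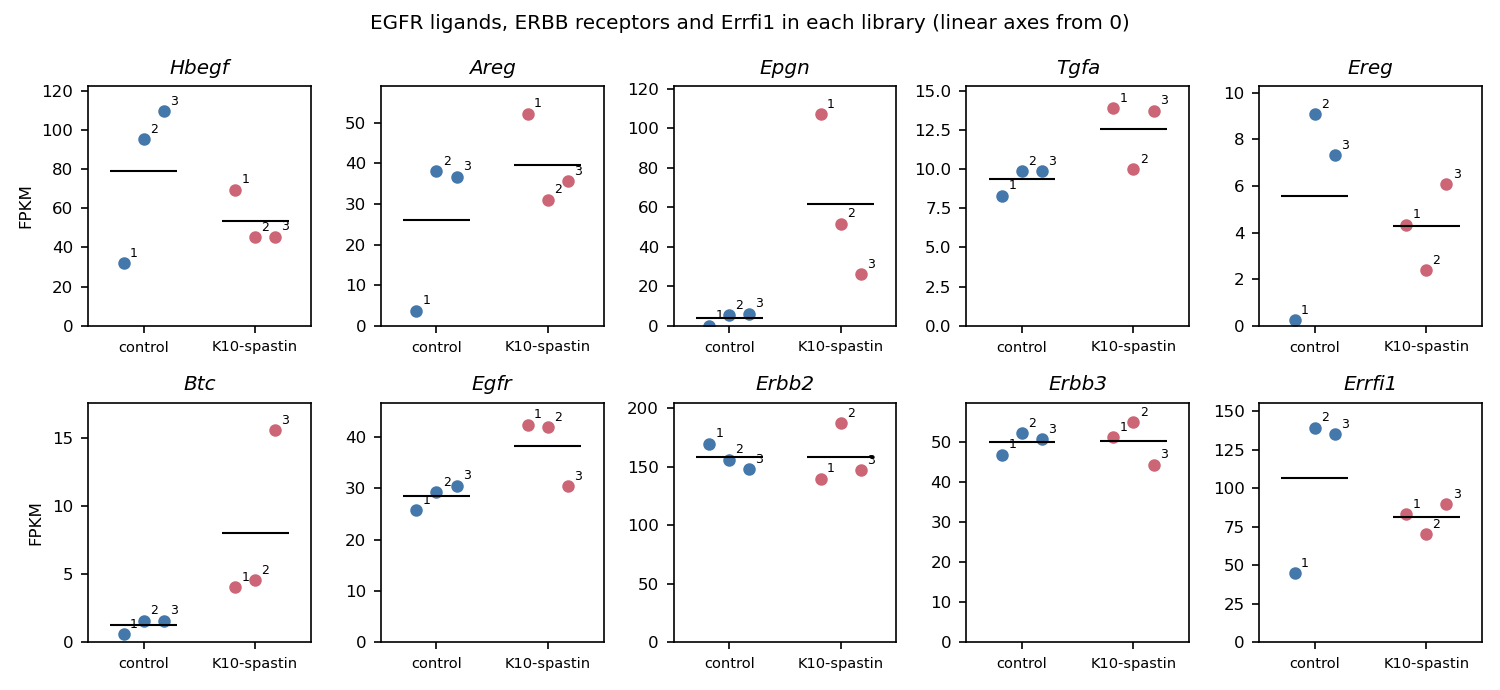
FPKM of each of the 10 genes in each library on linear axes from 0, with points numbered by replicate (blue, control; red, K10-spastin) and black bars at the group means. Epgn was between 26.3 and 107 FPKM in K10-spastin and at or below 6.25 FPKM in the controls, and control 1 was low in Areg, Ereg, Hbegf and Errfi1.

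Hbegf (ENSMUSG00000024486), which encodes the heparin-binding ligand known from wound closure, was the ligand with the highest mean over all libraries. It was at 32.0, 95.3 and 109 FPKM in the control libraries, against 69.5, 45.3 and 45.5 FPKM in the K10-spastin libraries. The K10-spastin libraries lay below controls 2 and 3 and above control 1, so the groups overlapped. The log2 change was -0.40 ± 0.45 (limma adjusted p = 0.582) with all libraries and -0.95 ± 0.23 (limma adjusted p = 0.0752) without control 1. Leaving out replicate 1 of both groups gave -1.15 ± 0.11 (limma adjusted p = 0.0218). That fit had 2 libraries a group and dropped the lowest control and the highest K10-spastin library. Its larger change and smaller p therefore follow in part from the libraries left out.

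Areg (ENSMUSG00000029378), which encodes amphiregulin, had a change near 0 once control 1 was set aside. Controls 1 to 3 had 3.75, 38.0 and 36.8 FPKM and the K10-spastin libraries 52.3, 31.1 and 35.6 FPKM. Controls 2 and 3 thus lay inside the range of the K10-spastin libraries. The log2 change of 1.05 ± 0.77 (limma adjusted p = 0.389) became 0.05 ± 0.24 without control 1 (limma adjusted p = 0.924), with a 95% interval from -0.54 to 0.63.

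Ereg (ENSMUSG00000029377), which encodes epiregulin, was likewise lowest in control 1. It was at 0.258, 9.08 and 7.30 FPKM across controls 1 to 3, while K10-spastin had 4.33, 2.39 and 6.06 FPKM. Every K10-spastin library was below controls 2 and 3. The log2 change was 0.09 ± 0.76 (limma adjusted p = 0.947) and, without control 1, -0.86 ± 0.34 (limma adjusted p = 0.185).

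Tgfa (ENSMUSG00000029999), which encodes the classical EGFR ligand of keratinocytes, is made in the epidermis itself. The controls had 8.31, 9.85 and 9.86 FPKM and the K10-spastin libraries 13.9, 9.99 and 13.7 FPKM. The groups did not overlap, but K10-spastin 2 lay just above control 3, and the log2 change of 0.38 ± 0.19 did not pass the test (limma adjusted p = 0.209).

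Epgn, Ereg, Areg and Btc lie next to each other in this order on mouse chromosome 5 in RefSeq, with only non-coding genes between them. The outer genes of this row, Epgn and Btc, had the largest log2 changes of the 10 members, 3.81 and 1.80, while the inner genes Ereg and Areg had changes of 0.09 and 1.05. Without control 1 the changes along the row were 2.96, -0.86, 0.05 and 1.57. Whether neighbours differed from each other was not tested.

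**Figure D2:**
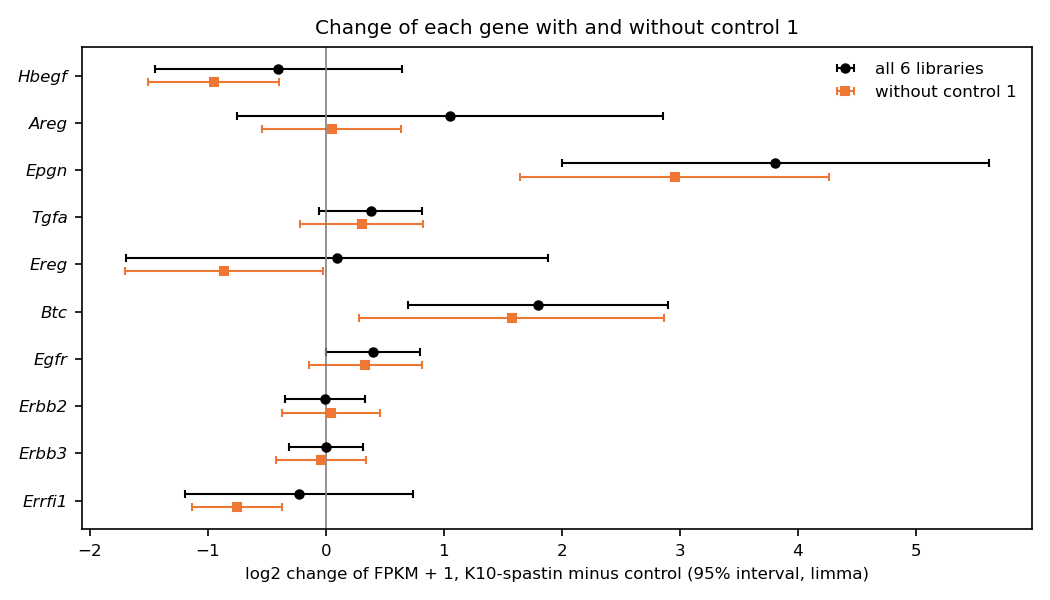
Change of each of the 10 genes on the log2(FPKM + 1) scale (horizontal axis, K10-spastin minus control) with 95% limma intervals, with all 6 libraries (black circles) and without control 1 (orange squares). Epgn was at 3.81 and 2.96, while Hbegf, Areg, Ereg and Errfi1 each moved down when control 1 was left out.

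The shares of Hbegf, Epgn and Btc in the ligand transcripts were separated between the groups, while the ligand sum was not. Shares within a library depend on each other, so a higher Epgn by itself lowers the share of Hbegf. In FPKM, Hbegf overlapped between the groups. In the controls Hbegf made up 70.9%, 59.8% and 63.9% of the summed FPKM of the 6 ligands, and in K10-spastin 27.7%, 31.2% and 31.9%. The share of Epgn was 0.392%, 3.52% and 3.65% in the controls and 42.6%, 35.6% and 18.4% in K10-spastin. Both shares were separated without overlap, and control 1 was no exception. The share of Hbegf differed by -34.6 percentage points and that of Epgn by 29.7, each with an exact two-sided permutation p of 0.1, the smallest that 3 against 3 libraries can give, and 0.2 adjusted over the 6 ligands. Without control 1 the differences were -31.6 and 28.6 percentage points (exact permutation p = 0.1, again the smallest possible, and 0.2).

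The share of Btc was 1.41%, 1.01% and 0.932% in the controls and 1.61%, 3.15% and 10.9% in K10-spastin, without overlap (exact permutation p = 0.1, 0.2 adjusted over the 6 ligands). Areg held 8.31%, 23.9% and 21.5% in the controls and 20.8%, 21.4% and 24.9% in K10-spastin (exact permutation p = 0.6, 0.72 adjusted). The shares of Ereg and Tgfa also overlapped between the groups (exact permutation p = 0.6 and 0.8, 0.72 and 0.8 adjusted). The 4 neighbours on chromosome 5 together held 10.7%, 34.1% and 30.3% of the ligand sum in the controls and 66.8%, 61.9% and 58.5% in K10-spastin, a grouping chosen after the values were seen. This joint share includes the separated shares of Epgn and Btc, while those of Areg and Ereg overlapped. Epgn alone held 42.6%, 35.6% and 18.4% of the ligand sum in K10-spastin and at most 3.65% in the controls. The joint share was not computed without Epgn, so a shift of the whole row is not shown.

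The sum itself overlapped between the groups. It was 45.1, 160 and 171 FPKM in the control libraries, against 251, 145 and 143 FPKM in the K10-spastin ones. Control 1 was lowest and K10-spastin 1 highest, and the remaining 4 libraries lay between 143 and 171 FPKM. The log2 difference was 0.69 (exact permutation p = 0.6) and 0.07 without control 1. Relative to Egfr, the ligand sum was 1.75, 5.46 and 5.61 in the controls and 5.92, 3.46 and 4.69 in K10-spastin, with a log2 difference of 0.28 (exact permutation p = 0.8) that turned to -0.27 without control 1.

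**Figure D3:**
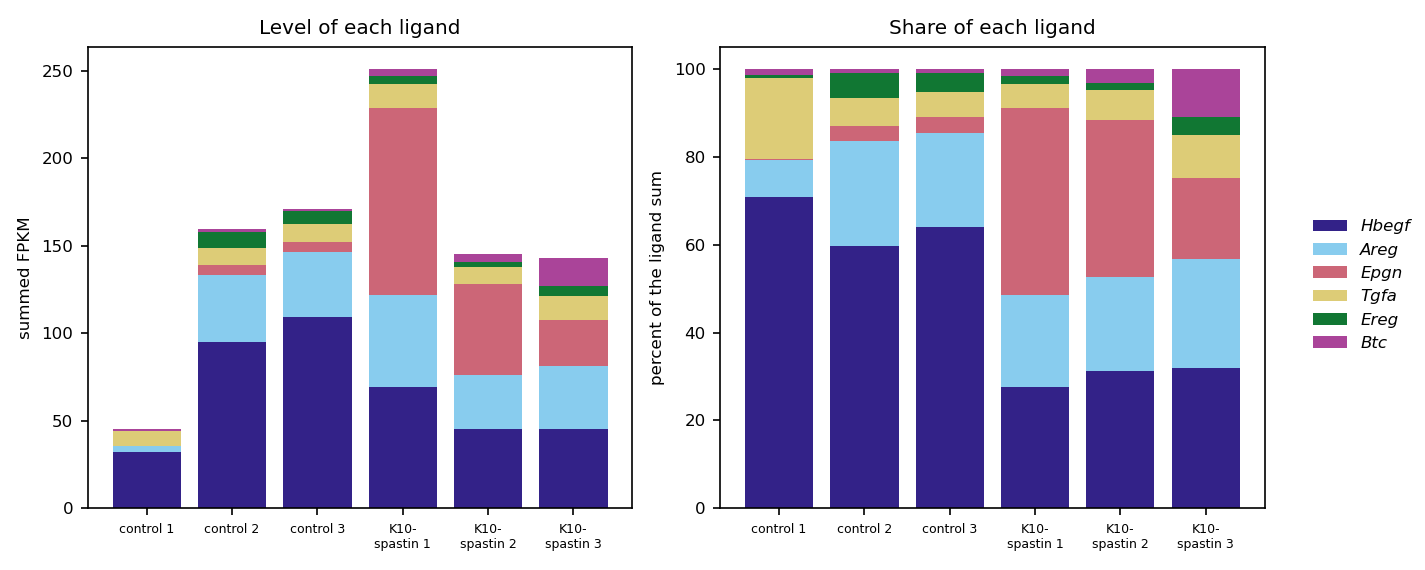
Stacked FPKM of the 6 ligands in each library (left, linear axis from 0) and the same as a percentage of their sum (right). The Hbegf share (dark blue) was 59.8% to 70.9% in the controls and 27.7% to 31.9% in K10-spastin, and Epgn (red) filled 18.4% to 42.6% of the bars in K10-spastin.

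Among the receptors, Egfr (ENSMUSG00000020122) was at 25.8, 29.2 and 30.5 FPKM across controls 1 to 3, while K10-spastin had 42.4, 42.0 and 30.4 FPKM. K10-spastin 1 and 2 were above every control, but K10-spastin 3 lay among them. The log2 change was 0.40 ± 0.17 (limma adjusted p = 0.159), and 0.33 ± 0.20 without control 1 (limma adjusted p = 0.334). Erbb2 (ENSMUSG00000062312), whose product is the partner shared by the other receptors, had the highest level of all members, at 170, 156 and 148 FPKM in the control libraries, against 140, 187 and 147 FPKM in the K10-spastin ones. Its log2 change was -0.01 ± 0.15, with a 95% interval from -0.35 to 0.33 (limma adjusted p = 0.982).

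Erbb3 (ENSMUSG00000018166) was at 46.9, 52.3 and 50.8 FPKM across controls 1 to 3, while K10-spastin had 51.3, 55.0 and 44.5 FPKM, with a log2 change of 0.00 ± 0.13 and a 95% interval from -0.31 to 0.32 (limma adjusted p = 0.991). The sign of the change differed between settings for both Erbb2 and Erbb3, under scaling alternatives among others. Of the summed FPKM of the 3 receptors, Erbb3 held 19.4% to 22.1% in the controls and 19.4% to 22.0% in K10-spastin (exact permutation p = 0.5), Erbb2 64.5% to 70.0% and 59.9% to 66.3%, and Egfr 10.6% to 13.3% and 13.7% to 18.1%. The share of Egfr was separated without overlap, by 3.45 percentage points (exact permutation p = 0.1, the smallest possible, and 0.2 without control 1). That of Erbb2 overlapped (exact permutation p = 0.6). These p-values were not adjusted over the receptors. ERBB3 is also known from melanocytes and Schwann cells. The summed level of 6 melanocyte markers was 4.20 to 15.6 FPKM in the controls and 1.91 to 23.8 FPKM in K10-spastin, and that of 6 Schwann cell markers 2.51 to 3.55 and 1.30 to 2.45 FPKM, against 44.5 to 55.0 FPKM of Erbb3 itself. None of these markers was at 0 in all libraries, and their part in the Erbb3 level was not tested.

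Errfi1 (ENSMUSG00000028967), the feedback inhibitor, was at 44.9, 139 and 135 FPKM in the control libraries, against 83.3, 70.3 and 89.8 FPKM in the K10-spastin ones. The K10-spastin libraries lay below controls 2 and 3 and above control 1. The log2 change was -0.23 ± 0.41 (limma adjusted p = 0.744), -0.76 ± 0.16 without control 1 (limma adjusted p = 0.0565), and -0.78 ± 0.14 with K10-spastin 1 left out too (limma adjusted p = 0.0429). The last fit had 2 libraries a group and dropped the lowest control. Per unit of Egfr, Errfi1 was at 1.74, 4.77 and 4.42 in the controls and at 1.97, 1.68 and 2.95 in K10-spastin.

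Ranked by group mean, the controls had Erbb2 at 158 ± 11.0, Errfi1 at 106 ± 53.3, Hbegf at 78.9 ± 41.3, Erbb3 at 50.0 ± 2.76, Egfr at 28.5 ± 2.44, Areg at 26.2 ± 19.4, Tgfa at 9.34 ± 0.894, Ereg at 5.55 ± 4.67, Epgn at 4.01 ± 3.34 and Btc at 1.28 ± 0.559 FPKM (SD, n = 3). Of the 9 pairs of neighbours in this order, 7 overlapped in their library values, and Erbb2 was separate from Errfi1 and Erbb3 from Egfr. In K10-spastin the order was Erbb2 at 158 ± 25.5, Errfi1 at 81.1 ± 9.89, Epgn at 61.7 ± 41.3, Hbegf at 53.4 ± 13.9, Erbb3 at 50.3 ± 5.35, Areg at 39.7 ± 11.2, Egfr at 38.3 ± 6.79, Tgfa at 12.5 ± 2.20, Btc at 8.06 ± 6.50 and Ereg at 4.26 ± 1.84 FPKM (SD, n = 3). Here too 7 of 9 pairs overlapped, and Erbb2 was separate from Errfi1 and Egfr from Tgfa. Epgn thus went up the order of means.

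Markers of other cells moved with the groups in part. The summed level of 6 fibroblast markers was 6.44, 22.5 and 42.3 FPKM across controls 1 to 3, while K10-spastin had 0.791, 3.03 and 2.25 FPKM, and that of 6 basal keratinocyte markers 7171, 4083 and 7168 FPKM in the control libraries, against 3918, 4723 and 2495 FPKM in the K10-spastin ones. Among the controls, control 1 had the lowest fibroblast sum, and its basal sum was close to that of control 3, with control 2 lower. Leukocyte markers summed to 1.30 to 4.37 FPKM, with Cd3e and Cd207 at 0 in all libraries, endothelial markers to 0.178 to 0.376 FPKM and Merkel cell markers to 2.61 to 5.84 FPKM. Placode markers summed to 16.1 to 47.9 FPKM in the controls and 24.2 to 57.3 FPKM in K10-spastin. The part of these cells in the ligand values was not tested.

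Other ligands of the ERBB family were scarce. Of Egf, Nrg1, Nrg2, Nrg3, Nrg4 and the receptor Erbb4, only Nrg4, a ligand of ERBB4, reached a mean of 1 FPKM. It was at 5.43, 6.65 and 4.25 FPKM across controls 1 to 3, while K10-spastin had 2.13, 3.26 and 3.25 FPKM, without overlap, and its log2 change of -0.73 ± 0.23 did not pass the test (limma adjusted p = 0.0788). Nrg3 was listed at 0 in every library.

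Of 10 tested genes of ligand shedding, 1 rose and none fell, against 5.14% higher and 5.9% lower of all tested genes, with a median change of 0.285 against -0.0891. Under median-of-ratios scaling 2 were higher, and at an unadjusted limma p under 0.05 3 were higher and 1 lower. Timp3, an inhibitor of the ligand-cutting protease ADAM17, was at 1.64, 4.22 and 3.84 FPKM in the control libraries, against 48.5, 21.3 and 15.6 FPKM in the K10-spastin ones, with a log2 change of 2.70 ± 0.44 (limma adjusted p = 0.0161). Like Epgn, it was lowest in control 1 and highest in K10-spastin 1. The protease Adam8 was at 3.62 to 6.95 FPKM across controls 1 to 3, while K10-spastin had 39.4, 33.4 and 6.02 FPKM (a log2 change of 1.76 ± 0.64, limma adjusted p = 0.108, and 0.00469 without K10-spastin 3). The abundant Rhbdf1, which encodes the ADAM17 partner iRhom1, and the metalloprotease gene Adam15 had changes of 0.33 ± 0.16 and -0.32 ± 0.12 (limma adjusted p = 0.209 and 0.132). Without control 2 or without control 3, no gene of this list was called by limma, and 1 and 2 were higher at an unadjusted p under 0.05. It called 2 without K10-spastin 1 and 3 without K10-spastin 3.

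Of 24 adaptors and kinases below the receptors, 1 rose and 3 fell, against 5.14% higher and 5.9% lower of all tested genes, with a median change of 0.039 against -0.0891. Pik3r1, which encodes a regulatory subunit of PI3-kinase, was at 88.4, 94.7 and 80.4 FPKM in the control libraries, against 7.28, 17.4 and 30.7 FPKM in the K10-spastin ones. Its log2 change was -2.39 ± 0.43 (limma adjusted p = 0.0196). Pik3cb, which encodes a catalytic subunit, was at 6.21, 8.47 and 8.01 FPKM across controls 1 to 3, while K10-spastin had 18.7, 15.4 and 17.7 FPKM. Its log2 change was 1.10 ± 0.18 (limma adjusted p = 0.0150). These PI3-kinase subunit genes thus moved in opposite directions. Pik3ca, another catalytic subunit gene, named after its values were seen, changed by 0.01 ± 0.16 (limma adjusted p = 0.976). The other calls, named here after their values were seen, were the adaptor gene Gab1 (-0.56 ± 0.14) and the RAF kinase gene Araf (-0.49 ± 0.12), with limma adjusted p of 0.0465 and 0.0485, each called in 7 of 17 other settings. The abundant Hras and Map2k2 had changes of 0.09 ± 0.12 and 0.24 ± 0.11 (limma adjusted p = 0.653 and 0.182).

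The count differed with the libraries used, as did the count over all 11071 tested genes. Over all of these, 219 were higher and 230 lower without control 1. The totals were 142 and 70 without control 2, and 113 and 32 without control 3. Without control 1, limma called 1 of the 24 higher and none lower, with 2 higher and 4 lower at an unadjusted p under 0.05. Without control 2 or control 3 it called none, with 2 higher and 3 or 4 lower at an unadjusted p. It called 1 higher and 1 lower without K10-spastin 2, and 2 higher and 1 lower without K10-spastin 3.

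Of 19 genes of receptor degradation and inhibition, 1 rose and 2 fell, against 5.14% higher and 5.9% lower of all tested genes, with a median change of 0.0691 against -0.0891. Under median-of-ratios scaling 3 were higher and 1 lower, and under quantile normalization 1 was higher and 1 lower. Ptpn1, a phosphatase that acts on EGFR, was at 47.1, 42.4 and 44.2 FPKM in the control libraries, against 72.6, 83.5 and 77.0 FPKM in the K10-spastin ones, with a log2 change of 0.79 ± 0.12 (limma adjusted p = 0.0131). Lrig1, a membrane protein that promotes the degradation of ERBB receptors, was at 46.4, 52.1 and 60.0 FPKM across controls 1 to 3, while K10-spastin had 14.54, 29.6 and 27.3 FPKM, with a log2 change of -1.17 ± 0.27 (limma adjusted p = 0.0370). Its relative Lrig3, named after its values were seen, changed by -0.73 ± 0.19 (limma adjusted p = 0.0488) and was called in 6 of 17 other settings, with 0.0667 under median-of-ratios scaling. Epn1, which encodes an endocytic adaptor, and Tnk2, which encodes a kinase that binds EGFR, had the highest means of the list, with changes of -0.45 ± 0.21 and 0.06 ± 0.12 (limma adjusted p = 0.200 and 0.786). Without control 1, Ptpn1 was higher and Lrig3 lower, and without control 2 or control 3 none was called, with 3 higher and 2 lower at an unadjusted limma p. Without K10-spastin 1, and without K10-spastin 2, 1 was higher and 1 lower, and without K10-spastin 3, 2 were higher and 1 lower. Over all 11071 tested genes, 142 were higher and 70 lower without control 2, and 113 and 32 without control 3.

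Of 19 tested genes that ERK signalling is known to raise, 1 rose and 4 fell, against 5.14% higher and 5.9% lower of all tested genes, with a median change of -0.214 against -0.0891. At an unadjusted limma p under 0.05, 5 were higher and 4 lower. Limma called 3 higher and 3 lower under median-of-ratios scaling, and 3 higher and 4 lower under quantile normalization. Etv4, an ETS transcription factor, was at 2.94, 3.33 and 5.61 FPKM in the control libraries, against 36.4, 96.3 and 50.2 FPKM in the K10-spastin ones. Its log2 change was 3.56 ± 0.37 (limma adjusted p = 0.00480), and it was called in all 17 other settings. Fos, an immediate-early factor, was at 2329, 2106 and 2470 FPKM across controls 1 to 3, while K10-spastin had 639, 796 and 1228 FPKM, a log2 change of -1.43 ± 0.24 (limma adjusted p = 0.0161). Egr1, of the same class, had a change of -1.07 ± 0.25 (limma adjusted p = 0.0375). The other falls, named after their values were seen, were Myc (-0.93 ± 0.18, limma adjusted p = 0.0248, called in 13 of 17 other settings) and the phosphatase gene Dusp1 (-0.83 ± 0.21, limma adjusted p = 0.0481, called in 5 of 17). Dusp1 was not called under median-of-ratios scaling.

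Which of these genes were called again depended on the libraries. Without control 1, Etv4 was higher and Egr1, Myc and the feedback inhibitor gene Spry1 were lower, and Fos had a limma adjusted p of 0.0557. With replicate 1 of both groups left out, and so 2 libraries a group, 1 was higher and 7 were lower. Over all 11071 tested genes, 634 were then higher and 625 lower. Without control 2 or control 3 limma called Etv4 higher and none lower, with 5 or 6 higher and 4 lower at an unadjusted p under 0.05. Without K10-spastin 1, 3 were higher and 2 lower, and without K10-spastin 2, 1 was higher and 1 lower, and without K10-spastin 3, 2 were higher and 3 lower. The totals over all 11071 tested genes were 142 higher and 70 lower without control 2, and 113 and 32 without control 3.

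**Figure D4:**
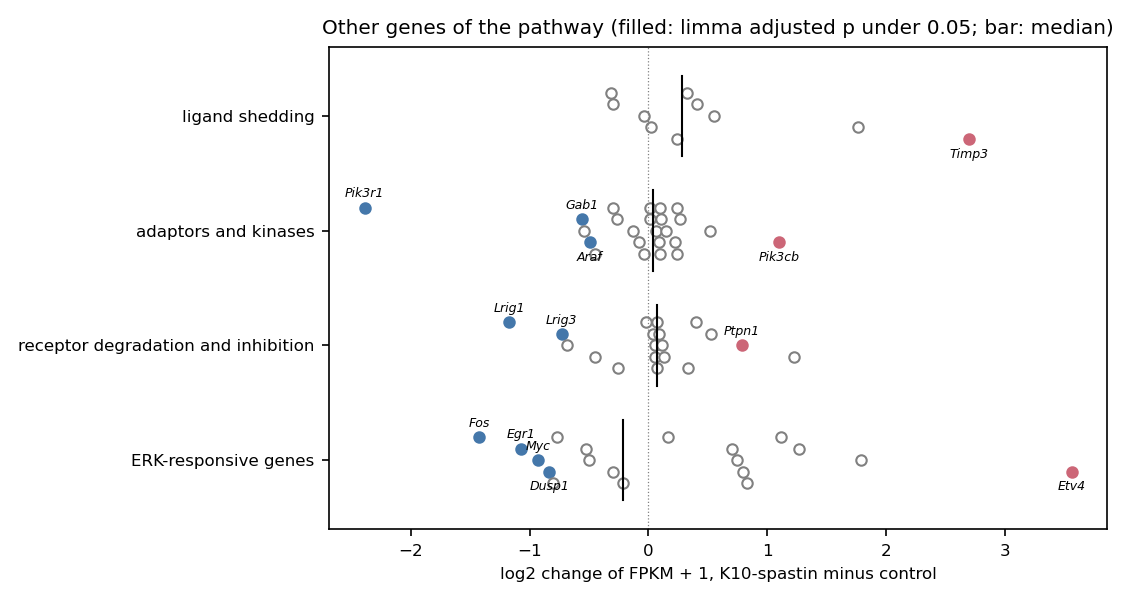
Change of each tested gene of 4 lists on the log2(FPKM + 1) scale (horizontal axis, K10-spastin minus control), filled where the limma adjusted p was under 0.05 (red, higher; blue, lower), with a bar at the median of each list. Timp3 (2.70) and Etv4 (3.56) lay farthest to the right and Pik3r1 (-2.39) farthest to the left.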

How the data were processed

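RNA was sequenced from sorted cells of 3 control and 3 K10-spastin samples. The authors deposited 1 table of FPKM per gene and sample. The submitters' processing notes name TopHat2 and CASAVA. The tool that computed FPKM, its genome build and annotation, and whether strand was used, were not given in the sources used here. Of 35275 identifiers, 34490 were matched to a symbol. Genes whose mean reached 1 FPKM were tested on log2(FPKM + 1) with limma 3.58.1 (trended eBayes, two-sided, R 4.3.3), with Benjamini-Hochberg adjustment over all genes and no covariate. Ligand and receptor sums and shares were compared with exact two-sided permutation tests over libraries. The fit was tested on simulated data. Depth was read from the steps of low values in genes with 1 transcript, so numbers of fragments are approximate, and 3 fragments per kilobase correspond to 0.134 to 0.188 FPKM.

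The 10 members and all other gene lists were chosen with earlier results of these data known. All members are named. Of each other list the 2 genes with the smallest limma p and the 2 with the highest mean are named, and for Hbegf and Egfr the 3 genes with the highest Pearson correlation over the 6 libraries. Alternatives were other pseudocounts, filters and scalings, robust, untrended and weighted fits, a replicate block, and leaving out libraries. Promoter sequences came from RefSeq on GRCm38.p6. Of the adaptors and kinases, 1 gene is not reported here and enters no count of that list.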

Additional observations from a re-analysis of the deposited data

How the results depend on the processing

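With 3 libraries a group, 1 library could decide a call, and the cause of each shift below was not tested. The 569 higher and 653 lower genes became 319 and 348 with no filter, 1535 and 1771 with array weights, and 113 to 691 and 32 to 701 when single libraries were left out. With a filter at a mean of 5 FPKM 414 were lower. Of the members, 2 were higher with a pseudocount of 0.5, median-of-ratios scaling, quantile normalization or array weights, 0 with no filter, and 0 to 2 when single libraries were left out. With replicate 1 of both groups left out, and so 2 libraries a group, 2 were lower. The labels give replicate numbers but do not say whether these pair the samples. In their deviations from the group means, same-numbered samples correlated at -0.128, -0.378 and -0.0471. Differently numbered samples correlated at -0.0865 to 0.273. The deviations within a group cancel out, so these correlations constrain each other and cannot decide whether samples were paired. A replicate block gave 274 higher and 218 lower genes, with limma adjusted p of 0.0563 for Epgn and 0.0487 for Btc.

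Epgn had a limma adjusted p of 0.0532 with a pseudocount of 0.1 and 0.0604 with no filter. With replicate 1 of both groups left out, the log2 change was -0.164 for Areg, -0.904 for Ereg, 0.128 for Erbb2 and -0.0577 for Erbb3, and the difference was -0.2 for the ligand sum and -0.459 for its ratio to Egfr. The share then differed by -30.3 for Hbegf, 2.28 for Tgfa, -2.4 for Erbb3, 1.42 for Egfr and 0.979 for Erbb2. Array weights gave -0.345 for Ereg, 0.00279 for Erbb2 and -0.124 for Erbb3, median-of-ratios scaling 0.0736 for Erbb2, and quantile normalization -0.0606 for Erbb3, -0.0281 for Hras and -0.0492 for Tnk2.
Leaving out single libraries gave log2 changes of -0.862 to 0.639 for Ereg, -0.134 to 0.0753 for Erbb2, -0.0635 to 0.0871 for Erbb3, -0.757 to 0.0489 for Errfi1 and -0.00103 to 0.117 for Tnk2. The ratio of the ligand sum to Egfr then differed by -0.273 to 0.568, and the shares by -0.268 to 7.5 for Areg, -2.44 to 0.12 for Ereg and -4.96 to 1.38 for Tgfa.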

Other observations

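Among the ERK-responsive genes, 10 of 19 were lowest in control 1, as 8 of the 10 members were. With genes chosen after their values were seen, Phlda1, a growth factor-induced gene, was at 5.04, 58.5 and 65.3 FPKM across controls 1 to 3, while K10-spastin had 81.6, 37.0 and 34.9 FPKM. Fosl1, a FOS family factor, was at 6.07, 48.2 and 76.1 FPKM in the control libraries, against 39.4, 12.9 and 8.68 FPKM in the K10-spastin ones. The ERK phosphatase gene Dusp5 was at 15.8, 82.7 and 87.6 FPKM across controls 1 to 3, while K10-spastin had 34.0, 15.6 and 39.4 FPKM. These genes thus had a low control 1 in common with Areg, Ereg and Errfi1.

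The genes most like Hbegf over the 6 libraries were Csrnp1 (Pearson r = 0.993), Mafk (0.991) and Nr6a1 (0.989), as a description over libraries that include the low control 1. Csrnp1 was at 26.9, 87.4 and 110.1 FPKM in the control libraries, against 59.7, 42.0 and 35.6 FPKM in the K10-spastin ones. The genes most like Egfr were Ppp4r1 (0.997), the ERK phosphatase gene Dusp7 (0.993) and Tbc1d12 (0.990). Dusp7 was at 153, 218 and 257 FPKM across controls 1 to 3, while K10-spastin had 642, 571 and 281 FPKM, so that, as for Egfr, K10-spastin 3 lay nearest to the controls.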
